A study of Mus musculus with 10 samples.

Results

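The TRIM genes are the 43 of 15507 genes in the authors' table whose symbol begins with Trim followed by a digit. A further gene, Triml1, carries a related symbol and does not meet this rule. RNA-Seq libraries were made from testicular germ cells of single mice, 5 of them WT and 5 homozygous for the GRTH knock-in (KI), all 45 days old. The KI allele holds human GRTH bearing the R242H change, and GRTH is the RNA helicase that Ddx25 encodes in the mouse. Germ cells were released with collagenase and trypsin and passed through strainers, so that each library holds spermatogonia, spermatocytes and spermatids together. RNA of other testis cells was present too, with WT means of 6904 normalized counts for the Leydig cell marker Insl3 and 6787 for the Sertoli cell marker Clu. No sort of the cells is described, and fewer cells of a type and less RNA per cell cannot be told apart.

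TRIM proteins share a tripartite motif of a RING domain, B-box domains and a coiled coil. The RING domain binds a ubiquitin-conjugating enzyme charged with ubiquitin and passes the ubiquitin to a target protein, the B-boxes and the coiled coil pair the proteins with each other, and a C-terminal domain that differs between members selects the target. The family serves in antiviral defence, transcriptional repression, the microtubule cytoskeleton and muscle turnover, and several members were first found in the testis. Trim14, Trim44 and Trim66 encode proteins that lack the RING domain, so that the family is held together by its motif and not by a ligase activity of every member. All 43 are annotated as protein-coding.

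The deposited value is a normalized count, which is the reads of a gene divided by a size factor of the library. Reads recovered on all genes numbered between 13323024 and 16422347 for WT, and between 12722086 and 15500582 for KI. Ddx25, the targeted gene, had normalized counts of 7615, 7782, 5198, 11101 and 9458 in WT libraries 1 to 5 and 146, 194, 161, 2.88 and 1.84 in KI libraries 1 to 5, counted on the mouse gene. Libraries 1 to 3 and libraries 4 and 5 of both genotypes differ in read quality in the study's summary of reads and lie apart on the second principal component. They are given separately where a result differs between them. Markers of spermatogonia, spermatocytes and round spermatids were detected for 7 of 8, 8 of 8 and 7 of 7 listed genes. Among those detected 1, 1 and 2 were lower in KI at an adjusted p under 0.05, where 13.3% of all genes were. The fold change threshold was passed as well by 0 of them, against 8.22% of all genes. Genes listed for elongating spermatids, such as Tnp2 and Prm2, were lower in KI at both thresholds for 10 of 10, against 8.22% of all genes. Summed normalized counts of the 10 were 285688 to 484613 in WT and 66456 to 99282 in KI. The paper places Tnp2 and Prm2 mRNA in round spermatids before translation, so that this list does not mark elongating cells alone.

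All 43 TRIM genes passed the filter on low counts. The genotypes were set against each other with limma on the scale of log2(normalized count + 1), which understates the fold change of genes with few reads. P-values carry a Benjamini-Hochberg adjustment across the 15389 genes in the fit, and they measure the spread between mice. An adjusted p under 0.05 was reached by 10 TRIM genes (23.3%), against 22.9% of all genes tested. Of these, Trim14, Trim30a, Trim32 and Trim3 rose in KI (9.3%, against 9.65% of all genes) and Trim13, Trim17, Trim36, Trim46, Trim54 and Trim59 fell (14.0%, against 13.3%). With a fold change of at least 1.5 as well, the thresholds of the study, 2 TRIM genes were up-regulated (Trim14 and Trim30a) and 3 were down-regulated (Trim17, Trim46 and Trim54). That is 4.65% up-regulated against 6.13% of all genes, and 6.98% down-regulated against 8.22%. The shares of TRIM genes called were thus near the background in both directions.

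**Figure D1:**
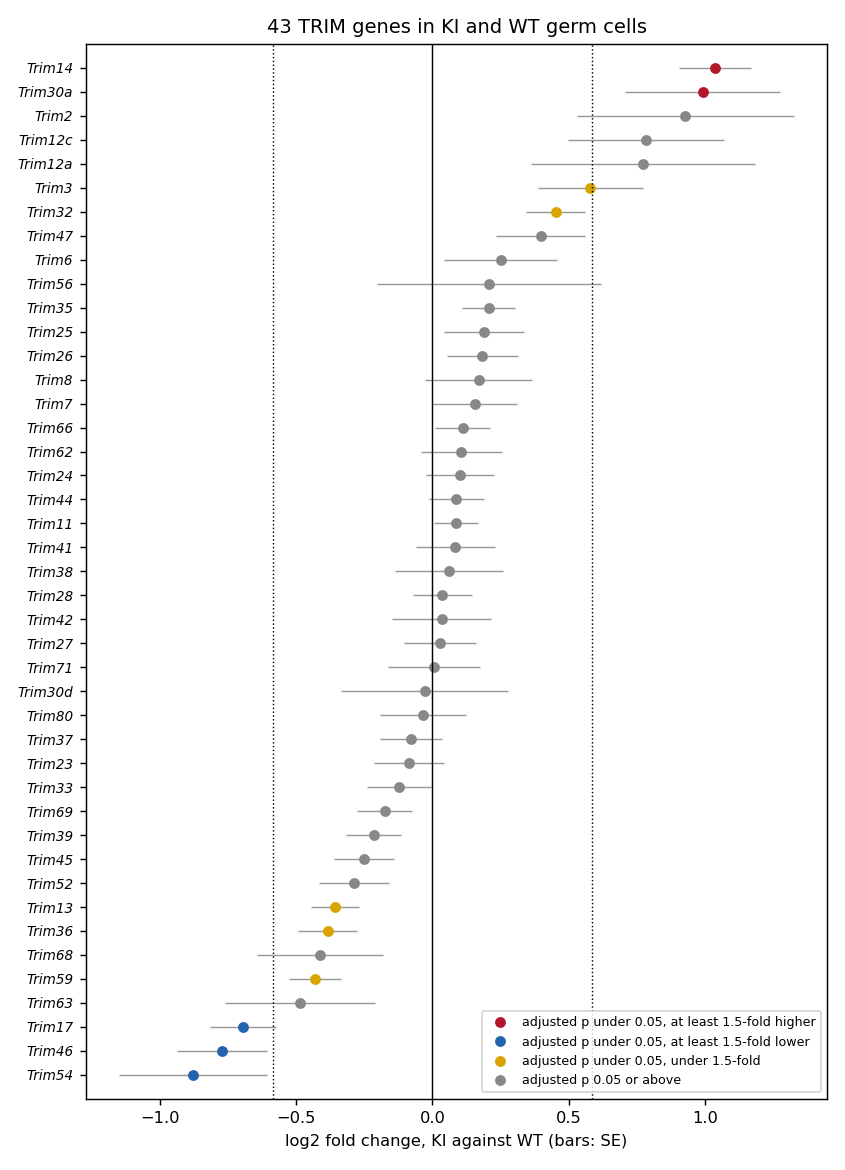
Log2 fold change of each of the 43 TRIM genes, KI against WT, with bars for the standard error of the limma fit. Dotted lines mark a fold change of 1.5 in each direction, and Trim14 at 1.04 and Trim54 at −0.88 are the ends of the range.

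The median log2 fold change of the 43 genes was 0.06, against 0.03 over all genes tested, and 26 of the 43 (60.5%) had the higher fitted mean in KI, against 53.6%. In 26 of the 43 (60.5%) the fitted fold change was under 1.2 in either direction, as it was in 57.3% of all genes. The 5 KI libraries did not overlap the 5 WT libraries in 7 TRIM genes (16.3%, against 17.7% of all genes), 3 of them higher in KI and 4 lower. Scaling to library totals shifted the median of all genes to 0.25 and that of the TRIM genes to 0.28. Under that scaling 7 TRIM genes (16.3%, against 13.9% of all genes) were up-regulated and 0 (against 5.13%) down-regulated at both thresholds, while Trim17 and Trim46 were still lower at an adjusted p under 0.05 in limma and Trim13, Trim36, Trim54 and Trim59 were not. TRIM genes took 0.406% to 0.434% of the recovered reads in the WT libraries and 0.434% to 0.491% in the KI libraries. Their summed normalized counts went the other way in part, with 63298 to 69689 in WT, 56603 to 59926 in KI libraries 1 to 3, and 68586 and 70820.5 in KI libraries 5 and 4.

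Levels of different genes are compared per kilobase of exon, with all exons of a gene in GENCODE vM21 merged. The merged length exceeds the longest coding transcript in Trim24 (8521 against 4042 bases), Trim14 (4338 against 1582) and Trim2 (19751 against 7428). In Trim80 the lengths are equal (1934 bases). Ranks can thus depend on the length used, and other lengths were not tested. Trim37, which encodes a ligase that limits centriole number, had the highest mean level per kilobase in both genotypes, with 2416 ± 109 in WT and 2309 ± 359.7 in KI (normalized counts per kb, SD, n = 5 for each genotype). Trim28 followed with 2067 ± 83.8 in WT and 2139.5 ± 337 in KI, which overlaps the level of Trim37 within the spread between libraries in KI. The next ranks were taken in both genotypes by Trim36, Trim69, Trim80 and Trim27, with mean levels per kilobase of 1765, 1431, 1048 and 864 in WT. The cell preparations thus held TRIM transcripts at levels that spanned more than 3 orders of magnitude, down to Trim2 at 0.526 ± 0.241 in WT and 0.956 ± 0.255 in KI. Which cells held the transcripts of low members was not tested. Trim17 moved from rank 7 in WT to rank 9 in KI, and Trim14 from rank 25 to rank 19.

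**Figure D2:**
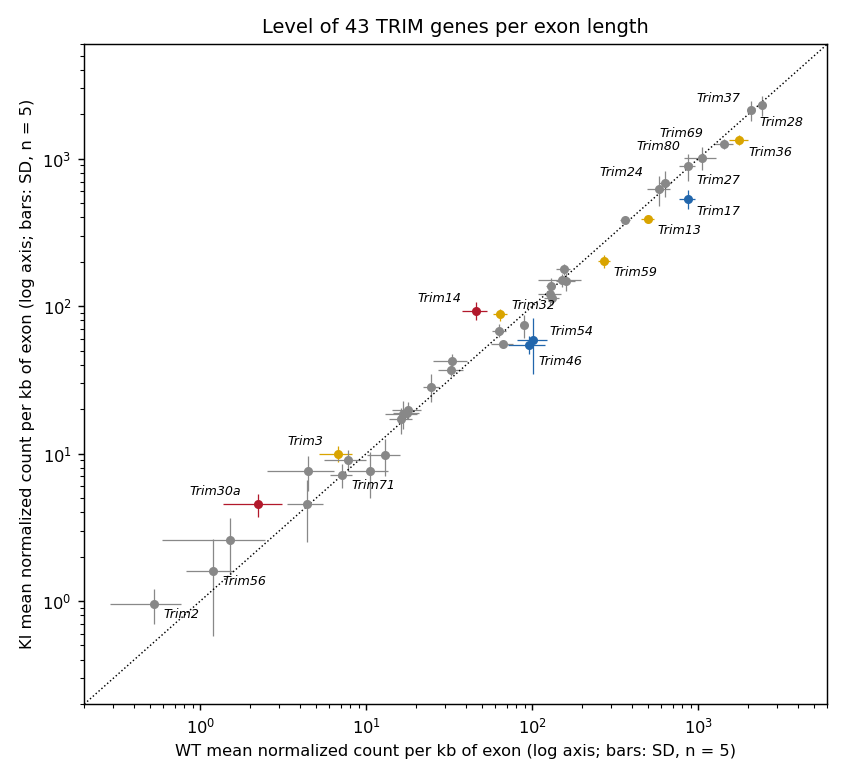
Mean normalized count per kilobase of exon of the 43 TRIM genes in WT (horizontal, log axis) and KI (vertical, log axis), with bars for the SD of 5 libraries. Red marks genes up-regulated and blue genes down-regulated at both thresholds, yellow genes with an adjusted p under 0.05 alone, and the dotted line equal levels, from which Trim14 and Trim30a lie above and Trim17, Trim46 and Trim54 below.

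The strongest rise was that of Trim14 (chromosome 4, 46505072 to 46536142), which encodes a RING-less adaptor of antiviral signalling at mitochondria. Its normalized counts were 178, 252, 161, 192 and 206 in WT libraries 1 to 5 and 337, 393, 377, 438 and 478 in KI libraries 1 to 5. The lowest KI library lay above the highest WT library. The means were 198 ± 34.8 for WT against 405 ± 54.9 for KI (SD, n = 5 each, log2 fold change 1.04, SE 0.13, limma adjusted p = 4.82e-05). Trim14 is 1 of 3 TRIM genes with non-overlapping libraries on the higher side, where 6.8% of all genes lie. Its rise was 0.93 over libraries 1 to 3 against 1.201 over libraries 4 and 5, and it passed both thresholds within each set.

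Trim30a (chromosome 7, 104409026 to 104465194) encodes an inducible inhibitor of Toll-like receptor signalling and was close to the detection limit. Normalized counts were 9.41, 8.09, 7.25, 6.02 and 15.1 in WT libraries 1 to 5 and 17.7, 15.6, 15.4, 22.1 and 22.1 in KI libraries 1 to 5, which are at most 24 reads in any library. The groups did not overlap, although WT library 5 came within less than 1 normalized count of the lowest KI library, library 3. A single read is worth 0.94 normalized counts in WT library 5 and 1.03 in KI library 3, so that the separation is smaller than 1 read. Means were 9.17 ± 3.52 for WT against 18.6 ± 3.32 for KI (SD, n = 5 each, log2 fold change 0.99, SE 0.28, limma adjusted p = 0.0194). The adjusted p was 0.0699 within libraries 1 to 3 alone and 0.204 within libraries 4 and 5 alone, with log2 fold changes of 0.90 over libraries 1 to 3 against 1.12 over libraries 4 and 5.

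Trim30a belongs to a run of TRIM genes on chromosome 7 that also holds Trim6, Trim12a, Trim12c and Trim30d, with 4820 bases between Trim30a and Trim30d in the authors' table. Trim12a and Trim12c are mouse relatives of the retroviral restriction factor Trim5. Normalized counts of Trim12c were 11.5, 18.5, 10.9, 14.0 and 28.2 in WT libraries 1 to 5 and 20.4, 29.5, 37.1, 21.2 and 34.0 in KI libraries 1 to 5 (log2 fold change 0.78, SE 0.29, limma adjusted p = 0.0618), so that the groups overlapped. With the library number as a block the adjusted p of Trim12c was 0.0318. Counts of Trim12a were higher in KI than in WT in libraries 1 to 3 and overlapped in libraries 4 and 5, with a log2 fold change of 1.29 over libraries 1 to 3 against −0.004 over libraries 4 and 5. Trim30d, the nearest neighbour of Trim30a, gave −0.03 (SE 0.31) and Trim6 gave 0.25 (SE 0.21), and neither passed the test. These genes resemble each other in sequence, and the 50-base words in the longest coding transcript were looked up in other genes. Matches were found for 32.2% in Trim12c, 23.5% in Trim12a, 8.29% in Trim30d and 6.53% in Trim30a. Reads could thus be split among these genes, which leaves their values uncertain. The study's paired reads are longer than 50 bases, and sharing over their length was not tested.

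Promoters of 35 TRIM genes were found in the RefSeq sequences (GRCm38.p6), and the 250 bases before each start were searched on both strands for 8 motifs. They were the TATA box (TATAAA), the CCAAT box (CCAAT), the GC box (GGGCGG), the E-box (CACGTG), the cAMP response element with its half-site (TGACG), which lies inside it, the gamma-activated site and the core of the interferon-stimulated response element, spelled GAAA, any 2 bases and GAAA again. This core was found in Trim12c, Trim26, Trim30a and Trim30d, which is 11.4% of the 35, against 2.98% of 32851 mouse promoters. The gamma-activated site was found in 2.86% against 7.02%, and the TATA box in 11.4% against 12.4%. Higher shares were found for the cAMP response element (5.71% against 1.55%), its half-site (25.7% against 17.8%) and the E-box (8.57% against 6.02%). They were also higher for the GC box (45.7% against 32.7%) and the CCAAT box (45.7% against 33.8%). The TRIM share counts 1 promoter per gene, and the 32851 hold each distinct start of a gene. The last 100 bases before the start are shown for the 3 genes of the chromosome 7 run that hold the interferon-stimulated core. They are set side by side since Trim30a rose and Trim30d did not pass the test. Capitals mark this core and the CCAAT box, each here on the reverse strand.
Trim30a (chr7:104465194-104465293, minus strand): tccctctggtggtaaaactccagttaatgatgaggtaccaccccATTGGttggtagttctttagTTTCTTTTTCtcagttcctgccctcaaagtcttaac
Trim30d (chr7:104507850-104507949, minus strand): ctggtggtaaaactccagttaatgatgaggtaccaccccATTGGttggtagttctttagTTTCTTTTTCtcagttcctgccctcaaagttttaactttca
Trim12c (chr7:104353350-104353449, minus strand): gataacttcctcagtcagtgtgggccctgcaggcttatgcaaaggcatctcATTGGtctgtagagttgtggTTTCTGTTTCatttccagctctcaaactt
Trim30a and Trim30d share a run of 89 bases in these stretches, with the core inside it, while the longest run that Trim30a shares with Trim12c is 7 bases. A match describes the letters and is not shown to be a site in use.

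Of the 15 genes listed as antiviral TRIM genes, 9 were in the table, and 2 of these rose (Trim14 and Trim30a, where 6.13% of all genes did), 0 fell, and the median log2 fold change was 0.25. At an unadjusted p under 0.05 in limma 3 of the 9 were higher, against 16.2% of all genes, and 0 lower. Summed over the 9, normalized counts were 429 to 510.1 in WT and 678 to 885 in KI. Without Trim14, the sums of the other 8 overlapped, with 251 to 304 in WT and 288 to 407 in KI. Trim25, whose product ubiquitinates the viral RNA sensor RIG-I, had 142 ± 15.9 and 164 ± 35.9 normalized counts in WT and KI (SD, n = 5 each, log2 fold change 0.19). The log2 fold changes of Trim38 (0.06) and Trim56 (0.21) were smaller than their errors of 0.20 and 0.41. Among 12 tested genes of the interferon response, 4 were up-regulated and 0 down-regulated (median 0.33): Gbp2, Psmb8, Ifi35 and Mx1. Macrophage markers rose as well, 6 of 9 at both thresholds, with summed normalized counts of 836 to 1019 in WT and 1187 to 1572 in KI, and Leydig cell markers did so for 3 of 7 (10291 to 18066 and 14779 to 25692). Endothelial markers rose for 2 of 5 tested, whereas among Sertoli cell markers Gata4 alone passed the adjusted p, with 0 of 8 at both thresholds. Of 5 peritubular myoid markers tested 2 rose (Acta2 and Des) and 1 fell (Actg2). Actg2 had a WT mean of 3325 normalized counts, against 47.7 for Acta2 and 47.6 for Myh11, and which cells held its RNA was not tested. The part of these cells in the values of Trim14 and Trim30a was not tested.

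**Figure D3:**
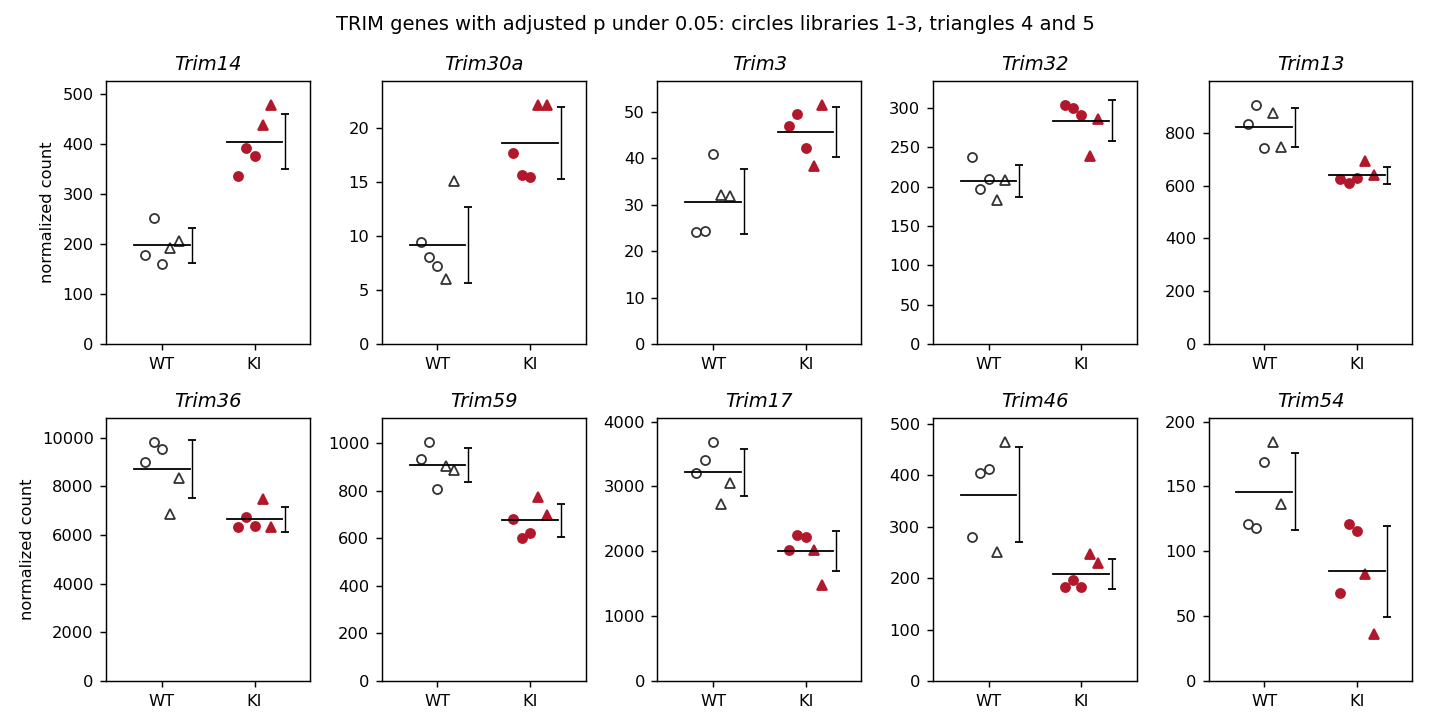
Normalized counts of the 10 TRIM genes with an adjusted p under 0.05 in each library, from the largest rise to the largest fall. Open symbols are WT and filled symbols KI, circles libraries 1 to 3 and triangles libraries 4 and 5, horizontal lines the means and bars the SD of 5 libraries. In Trim14, Trim30a, Trim32, Trim13, Trim59, Trim17 and Trim46 the groups do not overlap, and in Trim3, Trim36 and Trim54 they do.

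Among members with NHL or filamin repeats, Trim32 and Trim3 rose by less than 1.5-fold. Trim32 (chromosome 4, 65604986 to 65616241), a ligase of muscle and brain, had normalized counts of 237, 197, 210.2, 183 and 209 in WT libraries 1 to 5 and 304, 299.8, 290.3, 238 and 286 in KI libraries 1 to 5. The groups did not overlap, although KI library 4 lay only just above WT library 1. The means were 207 ± 20.3 for WT against 284 ± 26.2 for KI (SD, n = 5 each, log2 fold change 0.45, SE 0.11, limma adjusted p = 0.00747). Trim3 (chromosome 7, 105604463 to 105633572), a neuronal relative, had low normalized counts of 24.1, 24.3, 41.1, 32.1 and 32.0 in WT libraries 1 to 5 and 46.9, 49.5, 42.2, 38.5 and 51.5 in KI libraries 1 to 5. Here WT library 3 exceeded KI library 4, and the groups overlapped. The means of Trim3 were 30.7 ± 7.01 for WT against 45.7 ± 5.35 for KI (SD, n = 5 each, log2 fold change 0.58, SE 0.19, limma adjusted p = 0.0414), a fold change of 1.49, and the adjusted p was above 0.05 in 8 of the 10 fits that left out 1 library. Trim2, a neuronal ligase with at most 25 reads in a library, had a log2 fold change of 0.93 with an error of 0.40 and did not pass. Trim45 and Trim71 gave −0.25 (SE 0.11) and 0.01 (SE 0.17).

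Trim17 (chromosome 11, 58963781 to 58973076), which encodes the testis RING finger protein, showed the fall with the smallest adjusted p. Its normalized counts were 3213, 3415, 3691, 2723 and 3050.4 in WT libraries 1 to 5 and 2018, 2248, 2219.7, 2027 and 1481 in KI libraries 1 to 5. No KI value reached the WT range, and KI library 5 was the lowest. The means were 3219 ± 366 for WT against 1999 ± 308 for KI (SD, n = 5 each, log2 fold change −0.69, SE 0.12, limma adjusted p = 0.000623). Split by library set, the log2 fold change of Trim17 was −0.67 over libraries 1 to 3 against −0.73 over libraries 4 and 5, and it passed both thresholds within each set. Trim17 was also lower under each scaling tried, with log2 fold changes between −0.75 and −0.47 over all alternatives. Its longest coding transcript shares sequence with histone genes, whose reads could enter its count, and this was not tested. Trim11, which starts 5017 bases behind the end of Trim17 on the same strand, had normalized counts of 1168, 1309.9, 1343, 1405 and 1255 in WT libraries 1 to 5 and 1309, 1389, 1354, 1486 and 1340.5 in KI libraries 1 to 5. The groups of Trim11 overlapped and its log2 fold change was 0.09 (SE 0.08).

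Trim46 and Trim36 are the detected members of the class with a COS box, which binds microtubules, and a SPRY domain. Trim46 (chromosome 3, 89234177 to 89245898) encodes an organiser of parallel microtubules in axons and had normalized counts of 280.3, 405, 412, 251 and 466 in WT libraries 1 to 5 and 183, 196, 183, 248 and 229 in KI libraries 1 to 5. The highest KI library, library 4, lay just below the lowest WT library, which was also library 4. Means were 363 ± 92.4 for WT against 208 ± 29.3 for KI (SD, n = 5 each, log2 fold change −0.77, SE 0.17, limma adjusted p = 0.0034). The log2 fold change of Trim46 was −0.94 over libraries 1 to 3 against −0.52 over libraries 4 and 5, where the adjusted p was 0.217. Trim36 (chromosome 18, 46165300 to 46212608) encodes haprin, a protein of the acrosome, and was the third TRIM gene by level per kilobase. Normalized counts were 8985, 9833, 9529.6, 6854 and 8336 in WT libraries 1 to 5 and 6308, 6716, 6366, 7471 and 6319 in KI libraries 1 to 5. The KI libraries lay below the WT libraries except that WT library 4 fell between KI libraries 2 and 4. With means of 8707 ± 1183 for WT against 6636 ± 496 for KI (SD, n = 5 each), its log2 fold change was −0.38 (SE 0.11, limma adjusted p = 0.0176), which is a 1.30-fold change. Split by library set it was −0.55 over libraries 1 to 3 against −0.14 over libraries 4 and 5, and the interaction of genotype and library set had an unadjusted p = 0.0166 and an adjusted p = 0.2 in limma.

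Trim54 (chromosome 5, 31116612 to 31137627), the muscle RING finger protein MuRF3, had the largest fall of the 43 in the limma fit, while edgeR and DESeq2 put Trim46 (−0.80 in both) ahead of Trim54 (−0.79 in both). Normalized counts were 121, 118, 169, 185 and 136 in WT libraries 1 to 5 and 68.1, 121, 115, 82.7 and 35.9 in KI libraries 1 to 5. KI library 2 reached the range of WT, and KI library 5 was the lowest of the 10 libraries. Means were 146 ± 29.6 for WT against 84.6 ± 35.0 for KI (SD, n = 5 each, log2 fold change −0.88, SE 0.27, limma adjusted p = 0.0292). Split by library set the log2 fold change was −0.45 over libraries 1 to 3 against −1.52 over libraries 4 and 5, and the adjusted p was above 0.05 without WT library 3 (0.0645), without WT library 4 (0.0698) or without KI library 1 (0.061). Trim63, which encodes MuRF1, the muscle atrophy ligase, had a log2 fold change of −0.49 (SE 0.28) at 30.1 ± 8.17 and 21.7 ± 7.40 normalized counts in WT and KI and did not pass. Of 7 striated muscle markers 3 were in the table, and of the 2 tested 0 passed the adjusted p in limma, with 1 (Actn2, log2 fold change 0.44) at an unadjusted p under 0.05. The third, Myh1, did not pass the filter on low counts and had means of 20.4 ± 8.95 for WT against 6.06 ± 3.08 for KI (SD, n = 5 each), and its highest KI library lay below its lowest WT library. The part of muscle RNA in the values of Trim54 was not tested. Trim42, the third member of this class, with a fibronectin type III domain, had normalized counts of 419, 393, 506, 211 and 342 in WT libraries 1 to 5 and 350.4, 435, 379, 349 and 335 in KI libraries 1 to 5 and a log2 fold change of 0.03 (SE 0.18).

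The promoters of Trim46 and Trim54, 2 of the 3 down-regulated members, share no motif of the 8 in the 250 bases searched. Trim46 holds an E-box, CACGTG, which 6.02% of mouse promoters hold in 250 bases, and Trim54 the CCAAT box, which 33.8% hold, once on each strand. The last 100 bases of both are shown with these motifs in capitals, of which the reverse-strand CCAAT box of Trim54 lies inside them, and the promoter of Trim17 was not found in the RefSeq sequences.
Trim46 (chr3:89245898-89245997, minus strand): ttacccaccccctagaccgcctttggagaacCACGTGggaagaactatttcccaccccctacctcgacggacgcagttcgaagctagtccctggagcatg
Trim54 (chr5:31116512-31116611, plus strand): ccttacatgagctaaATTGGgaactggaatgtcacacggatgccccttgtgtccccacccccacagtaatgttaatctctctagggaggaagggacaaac

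The members anchored in membranes, Trim13 and Trim59, both fell. Trim13 (chromosome 14, 61598226 to 61605946) encodes a ligase of the endoplasmic reticulum membrane that takes part in degradation of misfolded proteins. Its normalized counts were 834, 905, 743, 875 and 747 in WT libraries 1 to 5 and 624, 611, 628, 691 and 639 in KI libraries 1 to 5. Each KI library was lower than each WT library. Means were 821 ± 73.6 for WT against 639 ± 31.2 for KI (SD, n = 5 each, log2 fold change −0.36, SE 0.09, limma adjusted p = 0.0085). Trim59 (chromosome 3, 69035294 to 69044743) had normalized counts of 931, 1006, 808, 904 and 888 in WT libraries 1 to 5 and 679.6, 599, 624, 773 and 698 in KI libraries 1 to 5. Again the groups did not overlap, and means were 907 ± 71.7 for WT against 675 ± 68.2 for KI (SD, n = 5 each, log2 fold change −0.43, SE 0.10, limma adjusted p = 0.00414). The falls of 1.28-fold and 1.35-fold lie under the fold change threshold. For Trim13 they were −0.41 over libraries 1 to 3 against −0.28 over libraries 4 and 5, and for Trim59 −0.52 over libraries 1 to 3 against −0.29 over libraries 4 and 5. Round spermatid markers had a median log2 fold change of −0.48. Of the 7, 2 were lower at an adjusted p under 0.05, where 13.3% of all genes were. At both thresholds 0 were lower, against 8.22% of all genes. The part of the cell mixture in the falls of Trim13, Trim17, Trim36, Trim46, Trim54 and Trim59 was not tested.

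The members with a PHD finger and a bromodomain are transcriptional corepressors. Trim28 (KAP1), which KRAB zinc finger proteins recruit to silence retrotransposons, had normalized counts of 8066, 8674, 8546, 8649 and 9036 in WT libraries 1 to 5 and 7339.5, 8636, 7819.5, 10399 and 10287 in KI libraries 1 to 5. KI libraries 4 and 5 were the highest of the 10 and KI library 1 the lowest, so that the WT range lay inside the KI range. The log2 fold change was 0.04 (SE 0.11, limma adjusted p = 0.854). For Trim24, a coregulator of nuclear receptors, normalized counts were 5027, 5642, 4779, 5595 and 5790.2 in WT libraries 1 to 5 and 5019, 5084, 4840.0, 7107 and 7096 in KI libraries 1 to 5. KI libraries 4 and 5 were again the highest of the 10. Its log2 fold change was 0.10 overall and −0.04 over libraries 1 to 3 against 0.32 over libraries 4 and 5. Trim66, a testis member that binds heterochromatin protein HP1, had normalized counts of 640.2, 687, 666, 539 and 673 in WT libraries 1 to 5 and 624, 705, 618, 772 and 742 in KI libraries 1 to 5 and a log2 fold change of 0.11 (SE 0.10). Trim33, a regulator of SMAD signalling, gave −0.12 (SE 0.12). None of the 4 passed the adjusted p in limma, where 22.9% of all genes did. At an unadjusted p under 0.05 the count was also 0, against 34.6% of all genes. Of 9 listed partners of Trim28, Cbx5, which encodes HP1 alpha, was higher at an adjusted p under 0.05 (log2 fold change 0.42), where 9.65% of all genes were. Both thresholds were passed by 0 of the 9, against 14.4% of all genes.

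Other members known from germ cells did not pass the test. Trim27, found first as a finger protein abundant in testis, had normalized counts of 4234, 4549.5, 4364, 5387 and 5231 in WT libraries 1 to 5 and 3872, 4564, 4132, 6019 and 5917 in KI libraries 1 to 5. Libraries 4 and 5 were higher than libraries 1 to 3 in both genotypes. Its log2 fold change was 0.03 (SE 0.13). Trim69, a further testis RING finger gene, had normalized counts of 2976, 3197, 2574, 2424 and 2341 in WT libraries 1 to 5 and 2379, 2517, 2306, 2585 and 2121 in KI libraries 1 to 5 and a log2 fold change of −0.18 (SE 0.10), with an adjusted p of 0.0206 in libraries 1 to 3 alone. Trim71, the stem cell and primordial germ cell gene Lin41, had normalized counts of 65.9, 54.3, 60.4, 80.2 and 72.5 in WT libraries 1 to 5 and 62.8, 52.1, 62.8, 73.1 and 85.6 in KI libraries 1 to 5. Its log2 fold change was 0.01 (SE 0.17), the smallest in size of the 43. Of the 10 genes listed as germ cell TRIM genes 8 were in the table, and 2 of them passed the adjusted p (Trim17 and Trim36, both lower, where 13.3% of all genes were lower), with a median log2 fold change of 0.02.

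Trim37 and Trim23 stand alone in their structural classes. Trim37 had normalized counts of 17712, 18628, 16594, 16936 and 17291 in WT libraries 1 to 5 and 15056, 15148, 14173, 19136 and 19785 in KI libraries 1 to 5. In libraries 1 to 3 each KI value was lower than each WT value, and in libraries 4 and 5 each KI value was higher than each WT value. The log2 fold change was −0.08 (SE 0.11) over all libraries and −0.25 over libraries 1 to 3 against 0.19 over libraries 4 and 5, where the adjusted p was 0.0228 and 0.492. The interaction of genotype and library set gave 0.44 on the log2 scale (SE 0.14, unadjusted p = 0.00703, limma adjusted p = 0.146). Trim23, which carries an ARF GTPase domain, gave −0.08 (SE 0.13).

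Over all 43 genes, 0 had an interaction of genotype and library set at an adjusted p under 0.05 in limma, against 0.247% of all genes. At an unadjusted p under 0.05 there were 7 (16.3%, against 16.1%), namely Trim24, Trim28, Trim36, Trim37, Trim42, Trim54 and Trim66. Within libraries 1 to 3 alone 5 TRIM genes passed both thresholds (11.6%, against 15.8%), which were Trim12a, Trim12c, Trim14, Trim17 and Trim46. Within libraries 4 and 5 alone 3 did (6.98%, against 10.1%), which were Trim14, Trim17 and Trim54. The medians of the 43 genes were −0.04 and 0.09 in the sets.

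**Figure D4:**
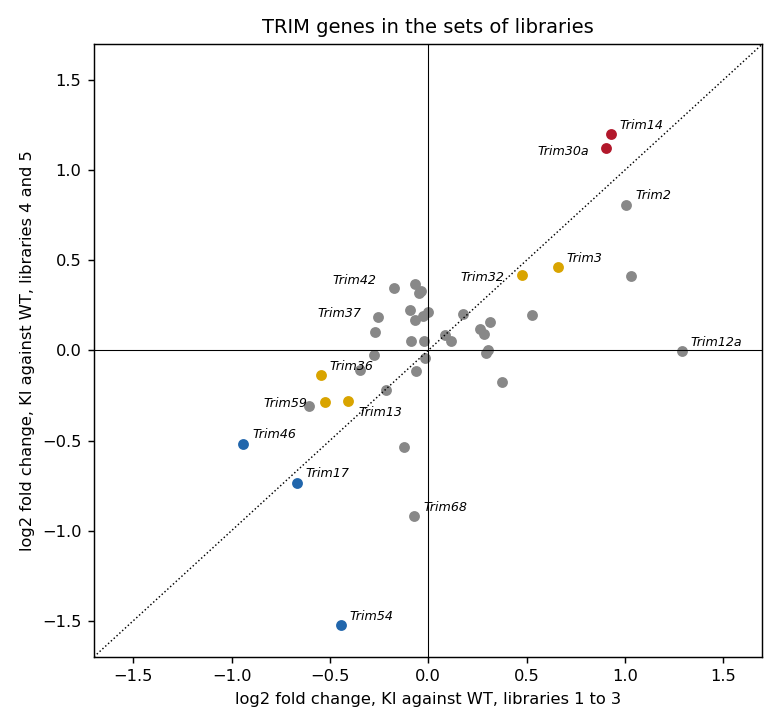
Log2 fold change of the 43 TRIM genes, KI against WT, in libraries 1 to 3 (horizontal) and in libraries 4 and 5 (vertical), with the dotted line for equal values. Colours are those of the calls over all libraries: red up-regulated, blue down-regulated, yellow adjusted p alone, grey neither. Trim14 and Trim17 lie near the line, Trim54 and Trim46 away from it, and Trim12a at 1.29 in libraries 1 to 3 lies at 0 in libraries 4 and 5.

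The remaining members with a SPRY domain did not pass the test. Trim41 and Trim7 lie 8746 bases apart on chromosome 11 and had log2 fold changes of 0.08 (SE 0.15) and 0.15 (SE 0.15). Trim35 and Trim47 had log2 fold changes of 0.21 (SE 0.10) and 0.40 (SE 0.16). With the library number as a block the adjusted p of Trim47 was 0.0404 and that of Trim39, which gave −0.21 (SE 0.10), was 0.0405. When a term for the library set took its place, Trim39 passed the adjusted p and Trim47 did not. Trim26, Trim62 and Trim68 gave 0.18, 0.11 and −0.41, with errors of 0.13, 0.15 and 0.23. Among the members without a named C-terminal domain, Trim80, the fifth TRIM gene by level per kilobase in both genotypes, had normalized counts of 2128, 2109, 2616, 1406 and 1877 in WT libraries 1 to 5 and 1865, 2313, 2259, 1973 and 1436 in KI libraries 1 to 5 (log2 fold change −0.03, SE 0.16). Trim8 gave 0.17 (SE 0.20) and Trim44 0.09 (SE 0.10). Trim52 gave −0.29 (SE 0.13), with KI library 5 the lowest at 184 against 297 to 338 in WT.

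Proteins of the family are also encoded under other symbols. Of 6 such genes listed, 5 were in the table. Mid1, the Opitz syndrome ligase that binds microtubules, had normalized counts of 18.8, 19.7, 24.2, 42.1 and 35.8 in WT libraries 1 to 5 and 75.2, 76.5, 81.3, 42.3 and 81.9 in KI libraries 1 to 5. Each KI library lay above each WT library, and the log2 fold change was 1.35 (SE 0.26, limma adjusted p = 0.00129). KI library 4 exceeded WT library 4 by less than 1 normalized count. Bspry, which carries a B-box and a SPRY domain, was lower in KI, with means of 8084 ± 654 for WT against 6628 ± 659.7 for KI (SD, n = 5 each, log2 fold change −0.29, limma adjusted p = 0.0445). Mid2, Pml and Cmya5 did not pass.

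Some counts may hold reads of other genes, since no source used here says whether strand was kept in the counting. Of the 10 TRIM genes that passed the adjusted p, Trim13, Trim14, Trim17, Trim30a, Trim32, Trim36 and Trim54 overlap an annotated gene on the other strand in GENCODE vM21. Trim46, Trim59 and Trim3 do not. Of the 50-base words in the longest coding transcript, 14.5% of Trim13, 18.3% of Trim17 and 6.61% of Trim59 also occur in another gene. Reads of other genes could thus enter their values, which leaves these uncertain too. The study's paired reads are longer than 50 bases, and sharing over their length was not tested. For Trim17 the genes that share such words include the histone genes Hist3h2a and Hist1h2ab.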

How the data were processed

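Germ cells of 5 WT and 5 homozygous KI mice gave 1 library each, grouped by the labels. The authors aligned reads to mm10 with STAR, counted them per gene in Partek and divided them by DESeq2 size factors, and the deposited values are this signal, a normalized count. Within each library the values were whole multiples of 1 read (tolerance 0.05 reads, values under 5000 reads), so that reads could be recovered. Columns not assigned to a library numbered 0.

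Genes were first filtered on the recovered reads with filterByExpr of edgeR (version 4.0.16). The log2 of each value plus a pseudocount of 1 then entered limma (version 3.58.1, under R 4.3.3), whose prior variance followed mean expression. Benjamini-Hochberg adjustment covered all genes tested. Calls used an adjusted p under 0.05 and a fold change of at least 1.5. Alternatives were other scalings, filters and pseudocounts, edgeR's quasi-likelihood test and DESeq2 (version 1.42.0). Further ones were the library number as a block, a term for the library set, each library set alone, and each library left out. The code was checked on simulated data.

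Deviations of same-numbered WT and KI libraries from their group means correlated with r = 0.306, 0.105, 0.280, 0.216 and 0.462. Libraries of different numbers reached r = 0.287 within a library set, so that the numbers and the sets are not separated by this check. It does not show that the numbers pair the libraries, and the labels name no pairing. The study's methods name no block, and the fit reported has none.

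Genes described with every library's value include each member with an adjusted p under 0.05, the listed germ cell members, the member with the highest level per kilobase in each structural class, and Ddx25. Trim11, Trim12c and Trim24 were added after their values were seen, as was Mid1. The members and lists were chosen with earlier results of these data known. Promoters are from RefSeq (GRCm38.p6), gene models from GENCODE vM21.

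A list of genes outside the family is not reported here.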

Additional observations from a re-analysis of the deposited data

Results flagged for a closer look

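Trim32 in KI library 4 had a normalized count of 238, apart from the other KI libraries, which lay between 286 and 304. The gap to the nearest library was 0.733 of the range of the group, above the limit of Dixon's test for 5 samples, 0.71. It was the 1 value of this kind in 38 groups of libraries examined, and chance gives about 1 in 20 groups.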

How the results depend on the processing

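Trim14 and Trim17 kept their direction and an adjusted p under 0.05 under each alternative run, including edgeR's quasi-likelihood test and DESeq2. Scaling to library totals moved the median of all genes to 0.25 and the split of calls from 944 higher and 1265 lower to 2144 higher and 789 lower. For the TRIM genes it gave 7 higher (16.3%, against 13.9% of all genes), 0 lower (against 5.13%), 17 with an adjusted p under 0.05 (39.5%, against 40.5%) and a median of 0.28. The upper quartile gave 4 higher (9.3%, against 8.42%) and a median of 0.15 (0.12 over all genes). Under edgeR's TMM scaling 6 genes did not overlap (background 17.7%). A filter of 50 reads in 5 libraries gave 1 higher (3.12%, against 4.6%). An adjusted p under 0.01 gave 1 higher (2.33%, against 3.93%) and 6 with that p (14.0%, against 13.6%). Libraries 4 and 5 alone gave 1 higher (2.33%, against 3.07%), 3 with an adjusted p under 0.05 (6.98%, where 1699 of 15389 genes did) and 23 without overlap (background 55.1%). Libraries 1 to 3 alone gave 17 without overlap (background 43.8%) and a median of −0.036. With 1 library left out, 7 to 11 genes did not overlap, against 18.9% to 22.1% of all genes, and the 11 came without KI library 4 (22.1% of all genes).

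Calls at an adjusted p under 0.05 were lost by Trim13, Trim36, Trim54 and Trim59 under library totals, by Trim13, Trim30a, Trim32, Trim36, Trim46, Trim59 and Trim3 in libraries 4 and 5 alone, by Trim30a, Trim54 and Trim3 in libraries 1 to 3 alone, by Trim36 without WT library 2, by Trim3 without any 1 of 8 libraries (all but WT library 3 and KI library 4), and by Trim54 without WT library 3, WT library 4 or KI library 1. The cause was not tested. With the library number as a replicate block the adjusted p of Trim12c became 0.0318, of Trim39 0.0405 and of Trim47 0.0404. Thus 13 TRIM genes passed it (13 of 43, against 32.0% of all genes), and the block changed no other call among the TRIM genes. A term for the library set gave 12 (27.9%, against 31.3% of all genes), with Trim12c and Trim39 among them and without Trim47.

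Directions reversed for members without a call. In libraries 1 to 3 alone the log2 fold change was −0.068 for Trim27, −0.090 for Trim28, −0.18 for Trim42, −0.036 for Trim66 and −0.024 for Trim71. Under library totals it was 0.15 for Trim37, 0.054 for Trim69 and 0.20 for Trim80, under the upper quartile 0.016 for Trim37 and 0.061 for Trim80, and in libraries 4 and 5 alone 0.19 for Trim37 and 0.051 for Trim80. For Trim42 edgeR gave −0.014 and DESeq2 −0.015. With 1 library left out the range was −0.053 to 0.11 for Trim27, −0.023 to 0.10 for Trim28, −0.16 to 0.16 for Trim42, −0.084 to 0.092 for Trim71 and −0.16 to 0.076 for Trim80. Depth limits Trim30a, Trim12a, Trim12c, Trim2 and Trim56, which have few reads.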
